A study of Mus musculus with 18 samples.

Results

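The tumour necrosis factor (TNF) ligand and receptor superfamily was followed in thymocytes, the T cell precursors that make up most of the thymus, of ageing mice. Its members were taken from the array's own gene names: every non-control probe named Tnf, Lta, Ltb, Ltbr, Fas or Cd40, or with a name beginning Tnfsf or Tnfrsf, other than Tnfrsf4 and Tnfrsf18. This gave 48 of the array's 41174 distinct probes, for 38 of its 38354 gene names (accessions and clone names included), 29 genes with 1 probe, 8 with 2 and 1 with 3. Several carry an old name on the array: Fas is listed as Tnfrsf6, Cd40 as Tnfrsf5, Cd40lg as Tnfsf5, Fasl as Tnfsf6 and Cd70 as Tnfsf7. The probe listed as Tnfsf5ip1 belongs to Psmg2, a proteasome assembly chaperone that is not a TNF family gene, so 37 of the 38 genes are of the superfamily.

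Thymi of C57BL/6 mice were dissociated and strained, fat was washed off and red cells were lysed with ammonium chloride. RNA of 3 mice each aged 6, 16 and 24 months was labelled with Cy3, and every array also carried Cy5-labelled thymocyte RNA of 1 month mice, giving 18 samples on 9 2-colour arrays. The study's design text calls the 1 month RNA a pool while the sample labels number single mice. The reference was therefore treated as 1 control sample. No agent or engineered allele is named for any group. Values below are log2 ratios of Cy3 to Cy5, so a positive value is a higher signal in the older mouse than in the 1 month reference on the same array. No array had its dyes swapped, so a difference from the reference cannot be told apart from a difference between the dyes, a limit that does not touch the contrasts between the older ages, which were all labelled with Cy3. The RNA comes from a whole cell suspension, in which fewer cells of a type and less RNA per cell cannot be told apart.

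TNF family ligands are mostly membrane proteins that act as trimers on receptors of neighbouring cells. Receptors with a cytoplasmic death domain, such as Fas, can recruit FADD and caspases. Many receptors of the family recruit TRAF adaptors and activate NF-kappaB, and some are soluble or decoy receptors. In the thymus, lymphotoxin, the ligand RANKL (Tnfsf11) and CD40 ligand made by T lineage cells act on Ltbr, RANK (Tnfrsf11a) and Cd40 of medullary epithelium and support its growth and the display of self antigens. B cells depend for survival on the ligand BAFF (Tnfsf13b) and its receptors.

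All 48 member probes were well above background in Cy5 on all 9 arrays, 39 were so in Cy3 on all 9, and 0 were saturated. Over all features, between 79.6% and 94.2% were well above background in Cy3, with 24 month replicate 2 the dimmest, and between 90.5% and 95.4% in Cy5. Of the thymocyte marker list, 11 of 12 genes were found on the array with 16 probes, and each of these probes was above background in both channels of all 9 arrays. The mean log2 ratio of that list lay between 0.16 and 0.42 on every array, but its single probes varied more. Rag1 probe A_52_P646895 had -1.68 and -1.27 on 16 month replicates 1 and 2 and -1.35 on 24 month replicate 3. Elsewhere it lay between 0.20 and 0.76, and the other Rag1 probes lay between -0.05 and 0.84 throughout. Cd8a lay between -0.60 and -0.27 on the 9 arrays and Bcl11b between 0.33 and 1.58. The mean of haemoglobin and other red cell probes varied far more than the thymocyte mean. It ran from -1.21 to -0.64 at 6 months, -0.42 to 1.16 at 16 months and -0.98 to 0.80 at 24 months. The part of red cells in the results below was not tested, but counts without the 3 arrays highest in haemoglobin (16 month replicates 1 and 2 and 24 month replicate 3) are given beside them.

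Against the 1 month reference, the ligands Tnfsf14, Fasl and Ltb were higher and a Fas probe was lower at both 16 and 24 months, by 1.37- to 1.79-fold. Tnfsf15 was higher and Tnfrsf11b lower at every age, by 1.18- to 1.34-fold. Between 24 and 6 months their log2 values differed by only -0.10 and 0.05. As with every difference from the reference, age and dye cannot be told apart in them. The B cell receptor gene Tnfrsf13c was 2.64-fold higher at 16 months. A probe of Tnfrsf19, a receptor of stroma and epithelium, was 2.54-fold lower at 24 months. This probe was well above background in Cy3 on none of the 24 month arrays and was tested only through Cy5, the channel where it is high. Another probe described as Tnfrsf19 did not share the fall. A probe passed when its Benjamini-Hochberg adjusted p in limma, over the 37449 probes tested, was under 0.05. At 6 months 6 of 48 member probes passed (12.5%), 3 higher and 3 lower, beside 12.4% of all probes tested (7.61% higher and 4.76% lower). At 16 months 12 passed (25.0%), 8 higher and 4 lower, beside 18.0% (11.4% higher and 6.59% lower). At 24 months 12 passed (25.0%), 7 higher and 5 lower, beside 24.9% (11.6% higher and 13.3% lower). The members' shares at 6 and 24 months were thus near the background. In all 18 probes passed at 1 or more ages, 3 of them (Tnfsf14, Tnfsf15 and Tnfrsf11b) at each age, and 30 passed at none. Differences were mostly small: 0, 1 and 1 member probes passed with over 2-fold difference at 6, 16 and 24 months, beside 0.676%, 1.22% and 1.68% of all probes. The median log2 ratio over the members was 0.00, 0.05 and -0.04, and over all probes -0.01, -0.01 and -0.02. Because the 3 ages share the reference material, their values are given side by side and not as separate evidence. When the 3 arrays with the most haemoglobin signal were dropped, so that 16 months kept 1 array, the numbers of member probes that passed were 3, 0 and 5, beside 2632, 0 and 3651 of all probes. Fitted on the arrays of 1 age alone they were 0, 4 and 0, beside 1132, 3534 and 0 of all probes. In the fits with 0 of all probes, at 16 and at 24 months respectively, the members' 0 is that of every probe on the array.

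**Figure D1:**
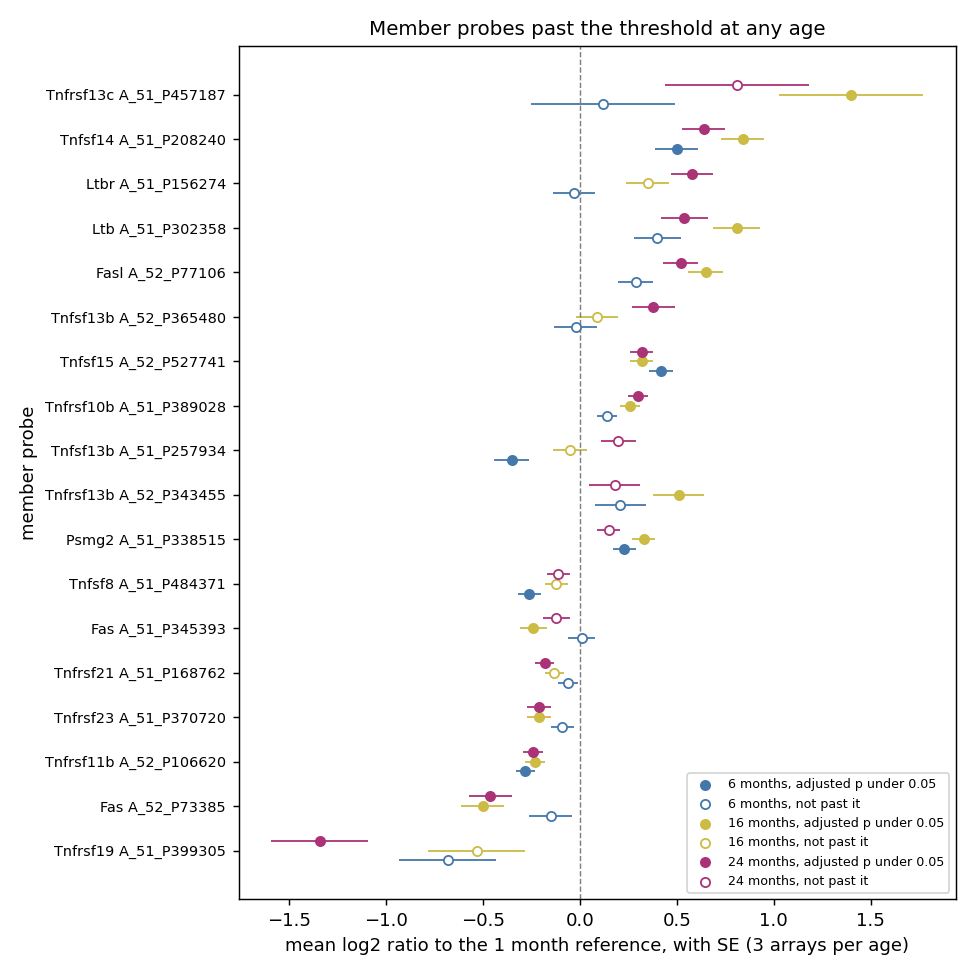
Mean log2 ratio to the 1 month reference (x axis) of the 18 member probes that passed at 1 or more ages (y axis), with bars of 1 SE from limma on 3 arrays per age. Filled points have an adjusted p under 0.05 and open points do not. Tnfsf14, Tnfsf15 and Tnfrsf11b are filled at all 3 ages, and Tnfrsf13c at 16 months lies farthest to the right at 1.40.

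Between the older ages, 0 of 48 member probes passed at 16 against 6 months, at 24 against 6 months or at 24 against 16 months in limma, beside 0.00% of all probes in each contrast. The smallest adjusted p over all probes was 0.176, 0.199 and 0.862. At an unadjusted p under 0.05 there were 10 member probes (20.8%) at 16 against 6 months, beside 6.38% of all probes, 4 (8.33%) at 24 against 6 months, beside 9.11%, and 0 at 24 against 16 months, beside 4.77%. The 3 arrays of 16 months did not overlap those of 6 months for 14 member probes (29.2%), 9 higher and 5 lower, beside 14.0% of all probes (7.27% higher and 6.69% lower). For 24 against 6 months there were 9 such probes (18.8%), 5 higher and 4 lower, beside 16.0% (5.91% higher and 10.1% lower). For 24 against 16 months there were 4 (8.33%), 2 higher and 2 lower, beside 10.8% (4.35% higher and 6.42% lower). The median difference over the members was 0.06 at 16 against 6 months and -0.03 in the other contrasts, and over all probes 0.01, -0.02 and -0.02. The model was also run on simulated 24 against 6 month data of 37449 probes, with independent normal noise of the spread limma gave each probe. In it 67, 67 and 66 probes were raised by 0.5, 1 and 2 on the log2 scale. Of these 13.4%, 59.7% and 93.9% were found. Variation shared between probes was not simulated, and the percentages depend on the share of probes changed. They are therefore no measure of the reach of the real data. The median size of a member's difference was 0.12, 0.14 and 0.13 in the 3 contrasts.

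**Figure D2:**
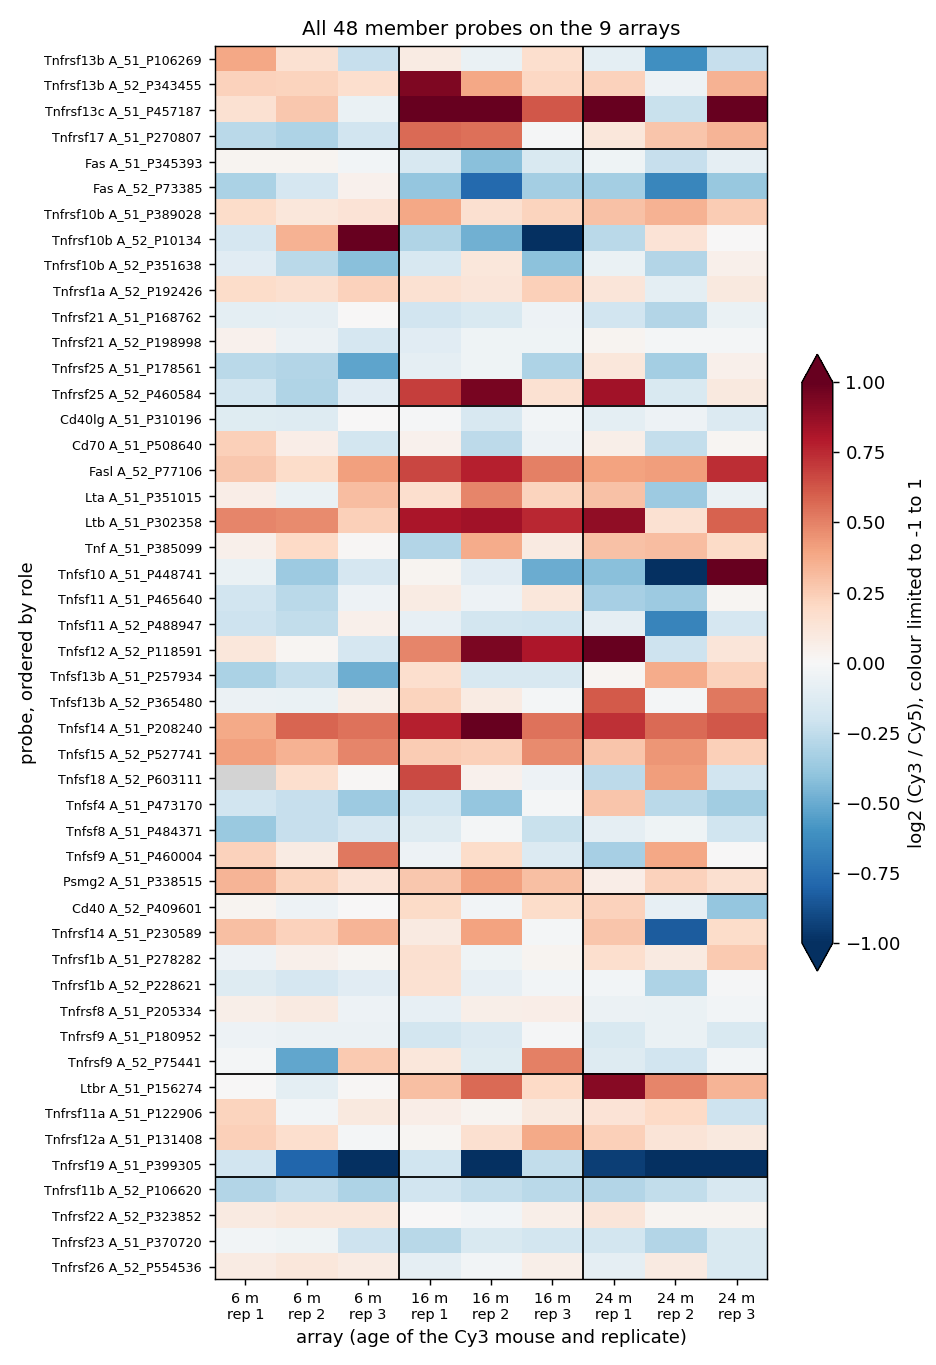
Log2 ratio of Cy3 to Cy5 (colour, limited to -1 to 1) of all 48 member probes (rows, ordered by role) on the 9 arrays (columns, age of the Cy3 mouse and replicate). A light grey cell is a spot left out as an outlier. Tnfsf14 and Tnfsf15 are above 0 on all 9 arrays, and Tnfrsf11b and Tnfrsf19 are below 0 on all 9.

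Ligands made up 18 probes of 16 genes. At 6 months 2 passed as higher and 2 as lower. At 16 months 4 passed as higher and 0 as lower, and at 24 months 5 as higher and 0 as lower. Over all probes 7.61%, 11.4% and 11.6% passed as higher at 6, 16 and 24 months. As lower the shares were 4.76%, 6.59% and 13.3%. Tnfsf14 encodes LIGHT, a ligand of Ltbr and of Tnfrsf14 that T cells make on activation. Its log2 ratios were 0.38, 0.58 and 0.54 on the 6 month arrays, 0.78, 1.20 and 0.54 on the 16 month arrays, and 0.73, 0.57 and 0.62 on the 24 month arrays. All 9 were above 0, and the ages overlapped one another. The means of 0.50, 0.84 and 0.64 (SE 0.11, n = 3 each) are 1.41-, 1.79- and 1.56-fold, with adjusted p of 0.0289, 0.00413 and 0.00829. The calls at 16 and 24 months were kept in all 9 fits that left out 1 array, while the 6 month call was lost without any one of its 3 arrays, with log2 values from 0.46 to 0.56. On the 1 array of 16 months left without those highest in haemoglobin the value was 0.54 (adjusted p 0.206), in a fit where 0 of all probes passed at 16 months.

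Ltb encodes lymphotoxin beta, which joins Lta to form the membrane ligand of Ltbr. On the 6 month arrays its log2 ratios were 0.49, 0.47 and 0.24, at 16 months 0.82, 0.84 and 0.75, and at 24 months 0.89, 0.15 and 0.59. The 16 month arrays all lay above the 6 month arrays, and the 24 month arrays spanned both. Against the reference the mean was 0.40 at 6 months (adjusted p 0.0680), 0.81 at 16 months (1.75-fold, adjusted p 0.00599) and 0.54 at 24 months (1.46-fold, adjusted p 0.0185), each with SE 0.12 and n = 3. The 16 month call was lost without 16 month replicate 2 (0.79, adjusted p 0.0509), and the 24 month call without 24 month replicate 1 (0.37, adjusted p 0.0765) or replicate 3 (0.52, adjusted p 0.0604).

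Lta, the other lymphotoxin chain, had log2 ratios of 0.07, -0.07 and 0.31 at 6 months, 0.17, 0.49 and 0.22 at 16 months, and 0.29, -0.36 and -0.07 at 24 months. Tnf, the founding cytokine of the family, had 0.05, 0.20 and 0.01 at 6 months, -0.29, 0.37 and 0.09 at 16 months, and 0.29, 0.31 and 0.19 at 24 months. For both genes the ages overlapped and no comparison passed, the adjusted p against the reference lying between 0.147 and 0.820 for Lta and between 0.108 and 0.738 for Tnf. In the RefSeq annotation of the mouse genome, build GRCm38.p6, Ltb, Tnf and Lta are direct neighbours on chromosome 17, and Tnfsf9, Cd70 and Tnfsf14 form another run of neighbours on it. Ltb and Tnfsf14 thus passed while the probes of their neighbours Tnf, Lta, Tnfsf9 and Cd70 did not.

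Ltb and Tnfsf14 are among the ligands that passed, and Tnf and Lta are the neighbours of Ltb that did not. The 250 bases upstream of the start of Ltb, Tnf, Lta and Tnfsf14 are shown for that reason. They come from RefSeq, GRCm38.p6, at chr17:35194257-35194506 on the plus strand for Ltb, and on the minus strand at chr17:35202008-35202257 for Tnf, chr17:35205352-35205601 for Lta and chr17:57194182-57194431 for Tnfsf14. Each is written 5′ to 3′ on its gene's strand. Capitals mark the NF-kappaB consensus in Ltb, TATAAA in Tnf and Lta and TGANTCA, the AP-1 motif, in Tnfsf14.
Ltb: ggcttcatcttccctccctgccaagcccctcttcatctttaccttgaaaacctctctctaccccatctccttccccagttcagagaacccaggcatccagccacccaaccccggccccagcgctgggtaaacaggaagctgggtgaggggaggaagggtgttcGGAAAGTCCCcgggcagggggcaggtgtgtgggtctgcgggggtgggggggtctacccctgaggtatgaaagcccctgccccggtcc
Tnf: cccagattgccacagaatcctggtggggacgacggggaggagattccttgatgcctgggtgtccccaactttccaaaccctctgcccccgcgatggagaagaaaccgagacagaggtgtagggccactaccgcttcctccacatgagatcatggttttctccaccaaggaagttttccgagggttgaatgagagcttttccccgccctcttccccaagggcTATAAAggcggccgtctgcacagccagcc
Lta: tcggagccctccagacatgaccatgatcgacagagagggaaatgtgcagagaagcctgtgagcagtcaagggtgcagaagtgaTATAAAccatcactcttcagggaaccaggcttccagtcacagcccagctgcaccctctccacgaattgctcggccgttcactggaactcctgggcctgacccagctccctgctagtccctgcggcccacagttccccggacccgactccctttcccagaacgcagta
Tnfsf14: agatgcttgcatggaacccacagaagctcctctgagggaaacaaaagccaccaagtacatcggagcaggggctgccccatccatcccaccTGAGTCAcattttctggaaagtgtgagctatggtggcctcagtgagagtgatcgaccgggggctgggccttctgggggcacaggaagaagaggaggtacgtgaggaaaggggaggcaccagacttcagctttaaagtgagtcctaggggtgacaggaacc
The Ltb match, GGAAAGTCCC as written on the gene's strand, is a match of the consensus on the opposite strand, and lies 87 to 78 bases before the start. TATAAA ends 24 bases before the start in Tnf and 162 bases before it in Lta. All 3 motifs were searched on both strands. Of the 38 member genes, 27 had an entry in the promoter table, with 31 promoters. The NF-kappaB consensus was found in 3 of the 31 (9.68%), those of Ltb, Tnfrsf8 and Tnfrsf9, and in 3.90% of all 32851 promoters of the same length. TGANTCA was found in 5 of the 31 (those of Fas, Tnfrsf8, Tnfrsf9, Tnfsf13b and Tnfsf14) and in 6.75% of all promoters. TATAAA was found in 6 of the 31 and in 12.4% of all. In Tnfrsf8 and Tnfrsf9 the AP-1 and NF-kappaB matches do not overlap. The promoters of Fasl, Tnfsf15 and Tnfsf8, ligands that also passed at 1 or more ages, held none of the 3 motifs. All matches given here are letters in a window and no measure of binding.

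Fasl encodes the ligand of Fas, carried by cytotoxic lymphocytes. Its log2 ratios were 0.27, 0.18 and 0.41 at 6 months, 0.67, 0.78 and 0.50 at 16 months, and 0.40, 0.42 and 0.74 at 24 months. All were above 0, the 16 month arrays lay above all 6 month arrays, and the 24 month arrays overlapped both. The mean was 0.29 at 6 months (adjusted p 0.0629), 0.65 at 16 months (1.57-fold, adjusted p 0.00405) and 0.52 at 24 months (1.43-fold, adjusted p 0.00713), with SE 0.09. Both calls were kept in all 9 fits that left out 1 array. With normexp background correction in place of the processed signals, the values were 0.35 and 0.23, still past the threshold. A list of natural killer (NK) and cytotoxic markers was read on the same arrays, and its 12 probes of 10 genes had a mean from 0.12 to 0.16 on the 6 month arrays, 0.31 to 0.90 on the 16 month arrays and 0.18 to 0.58 on the 24 month arrays. In that list 0, 5 and 5 of 12 probes passed as higher at 6, 16 and 24 months, beside 7.61%, 11.4% and 11.6% of all probes, and 0, 0 and 1 as lower. The probes of the list did not go together. On the 16 and 24 month arrays Klrk1 lay between 0.91 and 1.68 and Ccl5 between 0.41 and 1.87. Gzma lay between -0.09 and 0.03 there and Prf1 between -0.76 and 0.16. The part of this list in the Fasl values was not tested.

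Tnfsf15, the ligand of Tnfrsf25, had log2 ratios of 0.41, 0.35 and 0.49 at 6 months, 0.25, 0.24 and 0.47 at 16 months, and 0.28, 0.44 and 0.24 at 24 months. The ages overlapped and all 9 values were above 0. Means of 0.42, 0.32 and 0.32 (SE 0.06) had adjusted p of 0.0102, 0.0146 and 0.0128. Each call was lost in some fits that left out 1 array: at 6 months without replicate 2, at 16 months without replicate 2 or 3 and at 24 months without replicate 1 or 2, with adjusted p up to 0.0704. Its neighbour on chromosome 4, Tnfsf8, the CD30 ligand, went the other way at 6 months, with values of -0.37, -0.23 and -0.17 and a mean of -0.26 (SE 0.06, adjusted p 0.0344). That call was lost without any of the 6 month arrays or 24 month replicate 1, and Tnfsf8 did not pass at 16 months (-0.12) or 24 months (-0.11).

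Tnfsf13b, which encodes BAFF, had 2 probes. Log2 ratios of A_51_P257934 were -0.32, -0.24 and -0.49 at 6 months, 0.17, -0.16 and -0.16 at 16 months, and 0.02, 0.37 and 0.23 at 24 months. For A_52_P365480 they were -0.06, -0.07 and 0.06, then 0.22, 0.08 and -0.02, then 0.61, -0.02 and 0.53. With the first probe the 6 month arrays lay below all others, and with the second the ages overlapped. The difference of 24 against 6 months was 0.56 (SE 0.13) and 0.40 (SE 0.16), with unadjusted p of 0.00271 and 0.0382 and adjusted p of 0.420 and 0.541. Against the reference the first probe was lower at 6 months (-0.35, adjusted p 0.0448) and the second higher at 24 months (0.38, adjusted p 0.0460). The first call was kept in 3 of 9 fits that left out 1 array, those without 16 month replicate 1 or 24 month replicate 1 or 2. The second was kept in 1 of 9, the fit without 24 month replicate 2, and the value was 0.26 without 24 month replicate 1.

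Tnfsf11 encodes RANKL, the ligand that T lineage cells present to medullary epithelium. Probe A_51_P465640 had log2 ratios of -0.19, -0.27 and -0.05 at 6 months, 0.08, -0.05 and 0.11 at 16 months, and -0.33, -0.36 and 0.02 at 24 months. Probe A_52_P488947 had -0.21, -0.25 and 0.05, then -0.08, -0.18 and -0.20, then -0.09, -0.66 and -0.17. Arrays of the ages overlapped with both probes. The lowest means against the reference were those of 24 months, -0.22 and -0.31, with adjusted p of 0.0828 and 0.0726, so neither passed.

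Among the remaining ligands no probe passed in any comparison. Cd40lg, the ligand of Cd40, lay between -0.16 and 0.00 on all 9 arrays, and Cd70, the ligand of Cd27, between -0.26 and 0.24. Tnfsf4 (OX40 ligand) ranged from -0.39 to 0.28 and Tnfsf9, a T cell costimulatory ligand, from -0.33 to 0.53. Tnfsf18 (GITR ligand), measured on 8 arrays after an outlier spot of 6 month replicate 1 was dropped, ranged from -0.26 to 0.66. Tnfsf12 (TWEAK) had 0.11, 0.02 and -0.17 at 6 months, 0.49, 0.94 and 0.81 at 16 months and 1.32, -0.21 and 0.12 at 24 months. Its 16 month arrays lay above the 6 month arrays, with a difference of 0.76 (SE 0.35, adjusted p 0.769). Tnfsf10 (TRAIL) spread most widely at 24 months, with -0.42, -1.37 and 1.13. Tnfsf12 and Tnfsf10 were not well above background in Cy3 on every array.

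Death domain receptors made up 10 probes of 5 genes. Of these 0 passed at 6 months and 1 as higher and 2 as lower at both 16 and 24 months. Over all probes 12.4% passed at 6 months. As higher and as lower, 11.4% and 6.59% passed at 16 months and 11.6% and 13.3% at 24 months. Fas triggers the death of activated and autoreactive lymphocytes. Probe A_52_P73385 of Fas had log2 ratios of -0.32, -0.17 and 0.04 at 6 months, -0.39, -0.78 and -0.34 at 16 months, and -0.34, -0.65 and -0.38 at 24 months. Probe A_51_P345393 had 0.03, 0.03 and -0.03, then -0.16, -0.42 and -0.15, then -0.04, -0.23 and -0.09. With both probes every 16 and 24 month array lay below every 6 month array, and replicate 2 was the lowest at each of the later ages. At 24 months the separation was narrow. The highest 24 month values, -0.34 and -0.04, lay just below the lowest 6 month values, -0.32 and -0.03. Against the reference A_52_P73385 was 1.42-fold lower at 16 months (-0.50, SE 0.11, adjusted p 0.0190) and 1.37-fold lower at 24 months (-0.46, adjusted p 0.0217). A_51_P345393 was 1.18-fold lower at 16 months (-0.24, SE 0.07, adjusted p 0.0397) and did not pass at 24 months (-0.12, adjusted p 0.220). The difference of 16 against 6 months was -0.35 and -0.25, with adjusted p of 0.769 for both. For 24 against 6 months it was -0.31 and -0.12, with adjusted p of 0.583 and 0.700 in limma.

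The Fas calls rested on few arrays. For A_52_P73385 the 16 month call was lost without 16 month replicate 2 (-0.36, adjusted p 0.113) and the 24 month call without 24 month replicate 1 (-0.52, adjusted p 0.0582) or 2 (-0.36, adjusted p 0.105). For A_51_P345393 the call was kept in 1 of 9 such fits, the one without 24 month replicate 2, with values from -0.29 to -0.16. It was also lost without the 3 arrays highest in haemoglobin (-0.15, adjusted p 0.577) and with haemoglobin as a covariate (-0.22, adjusted p 0.0889).

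Tnfrsf10b, the TRAIL receptor with a death domain, had 3 probes that did not go together. A_51_P389028 had log2 ratios of 0.18, 0.11 and 0.14 at 6 months, 0.39, 0.16 and 0.22 at 16 months, and 0.29, 0.35 and 0.25 at 24 months. It was higher than the reference at 16 months (0.26, SE 0.05, adjusted p 0.0182) and 24 months (0.30, adjusted p 0.00979). The second call was kept in all 9 fits that left out 1 array, and the first was lost without any of its 3 arrays. A_52_P351638 lay between -0.42 and 0.11 and did not pass. A_52_P10134 was well above background in Cy3 on 3, 1 and 1 arrays of 6, 16 and 24 months and ranged from -2.31 to 3.12, both at replicate 3 of its age, and did not pass.

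Tnfrsf25, the receptor of Tnfsf15 on T cells, had 2 probes. A_52_P460584 had -0.18, -0.30 and -0.11 at 6 months, 0.69, 0.95 and 0.15 at 16 months, and 0.84, -0.15 and 0.10 at 24 months. A_51_P178561 had -0.27, -0.29 and -0.53, then -0.09, -0.04 and -0.31, then 0.11, -0.34 and 0.05. The first probe separated 16 from 6 months on every array, with a difference of 0.79 (SE 0.28, unadjusted p 0.0209, adjusted p 0.769). The second overlapped, with a difference of 0.22 (SE 0.14, adjusted p 0.797). Neither passed against the reference at any age. Tnfrsf1a, the main TNF receptor of most cells, lay between 0.10 and 0.24 on 8 arrays and at -0.10 on 24 month replicate 2, and passed nowhere. Of the probes of Tnfrsf21, a death receptor of lymphoid and nerve cells, A_51_P168762 was lower at 24 months (-0.18, SE 0.05, adjusted p 0.0441), a call kept in 1 of 9 fits that left out 1 array, that without 24 month replicate 3. The other probe was at 0.00 at 24 months.

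Other receptors of lymphocytes, 7 probes of 5 genes, had 0 probes past the threshold at any age. Over all probes 12.4%, 18.0% and 24.9% passed at 6, 16 and 24 months. Cd40, the receptor of CD40 ligand on B cells and epithelium, had log2 ratios of 0.03, -0.05 and 0.00 at 6 months, 0.19, -0.03 and 0.18 at 16 months, and 0.23, -0.08 and -0.39 at 24 months. The ages overlapped, and adjusted p against the reference lay between 0.478 and 0.975. Tnfrsf1b, the TNF receptor of activated and regulatory T cells, ranged from -0.05 to 0.26 with A_51_P278282 and from -0.31 to 0.15 with A_52_P228621. The nearest to passing was A_51_P278282 at 24 months (0.17, adjusted p 0.0530). Tnfrsf8 (CD30) lay between -0.08 and 0.09 on every array. The probes of Tnfrsf9, a costimulatory receptor of activated T cells, ranged from -0.18 to -0.01 and from -0.52 to 0.50, and Tnfrsf14, the other receptor of LIGHT, from -0.83 to 0.40.

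Receptors of the B cell lineage, 4 probes of 3 genes, had 2 probes past the threshold as higher at 16 months and 0 at 6 and 24 months. Over all probes 11.4% passed as higher at 16 months, and 12.4% and 24.9% passed in either direction at 6 and 24 months. Tnfrsf13c, the BAFF receptor of B cells, had log2 ratios of 0.15, 0.27 and -0.07 at 6 months, 2.36, 1.23 and 0.62 at 16 months, and 1.19, -0.22 and 1.47 at 24 months. The 16 month arrays all lay above the 6 month arrays. At 24 months replicates 1 and 3 were high, while replicate 2, on which the probe was not well above background in Cy3, was below 0. The mean was 1.40 at 16 months (SE 0.37, n = 3, 2.64-fold, adjusted p 0.0373) and 0.81 at 24 months, where the probe did not pass. With normexp background correction the 16 month value was 0.64, with adjusted p 0.0383. Without the 3 arrays highest in haemoglobin it was 0.62 on the 1 array left (adjusted p 0.613), and with haemoglobin as a covariate 1.25 (adjusted p 0.0849), so that neither fit kept the call. The call was lost without any one of the 6 month arrays, without 16 month replicate 1 (0.92, adjusted p 0.159) or 2 (1.49, adjusted p 0.137), or without 24 month replicate 1.

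Tnfrsf13b (TACI), a receptor of BAFF on B cells and plasma cells, had 2 probes. A_52_P343455 had 0.23, 0.22 and 0.17 at 6 months, 0.93, 0.39 and 0.21 at 16 months, and 0.23, -0.05 and 0.35 at 24 months. A_51_P106269 had 0.39, 0.15 and -0.23, then 0.08, -0.07 and 0.17, then -0.10, -0.61 and -0.23. Replicate 1 was the highest 16 month array with the first probe. That probe was higher than the reference at 16 months (0.51, adjusted p 0.0327), a call lost without 16 month replicate 1 (0.30, adjusted p 0.101) or 2 (0.57, adjusted p 0.109), 6 month replicate 2 or 24 month replicate 1. It was 0.21 without the 3 arrays highest in haemoglobin (adjusted p 0.497) and 0.43 with haemoglobin as a covariate (adjusted p 0.0707). The second probe had a 24 against 6 month difference of -0.42 (SE 0.18, adjusted p 0.553). Tnfrsf17 (BCMA), the receptor of plasma cells, had -0.27, -0.31 and -0.19 at 6 months, 0.57, 0.55 and -0.01 at 16 months, and 0.11, 0.28 and 0.34 at 24 months. Every later array lay above every 6 month array. The difference was 0.62 at 16 against 6 months (SE 0.15, unadjusted p 0.00370, adjusted p 0.769) and 0.50 at 24 against 6 months (unadjusted p 0.0119, adjusted p 0.488), so neither passed.

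Marker lists of B lineage cells were read on the same arrays. The mean of the B cell list (8 probes of 8 genes) lay between -0.03 and 0.04 on the 6 month arrays, between 0.14 and 0.33 at 16 months and between -0.02 and 0.28 at 24 months, with 24 month replicate 2 again the lowest. The 5 plasma cell probes had means from -0.12 to 0.22, 0.46 to 1.11 and 0.21 to 0.87. Jchain was far above the rest of that list. It lay between 1.82 and 3.15 at 16 months, and the other plasma cell probes between -0.11 and 1.21. At 24 months it lay between 2.03 and 3.02, and the others between -0.55 and 0.83. In the B cell list 0, 1 and 1 of 8 probes passed as higher at 6, 16 and 24 months, and in the plasma cell list 0, 3 and 1 of 5, beside 7.61%, 11.4% and 11.6% of all probes. The B cell probes did not go together: on the 16 month arrays Cd79b lay between 0.46 and 0.98 and Ms4a1 between 0.16 and 0.77, while Cd79a lay between -0.05 and 0.18, Fcer2a between -0.06 and 0.07 and Pax5 between -0.40 and 0.28. Their part in the values of Tnfrsf13c, Tnfrsf13b and Tnfrsf17 was not tested.

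**Figure D3:**
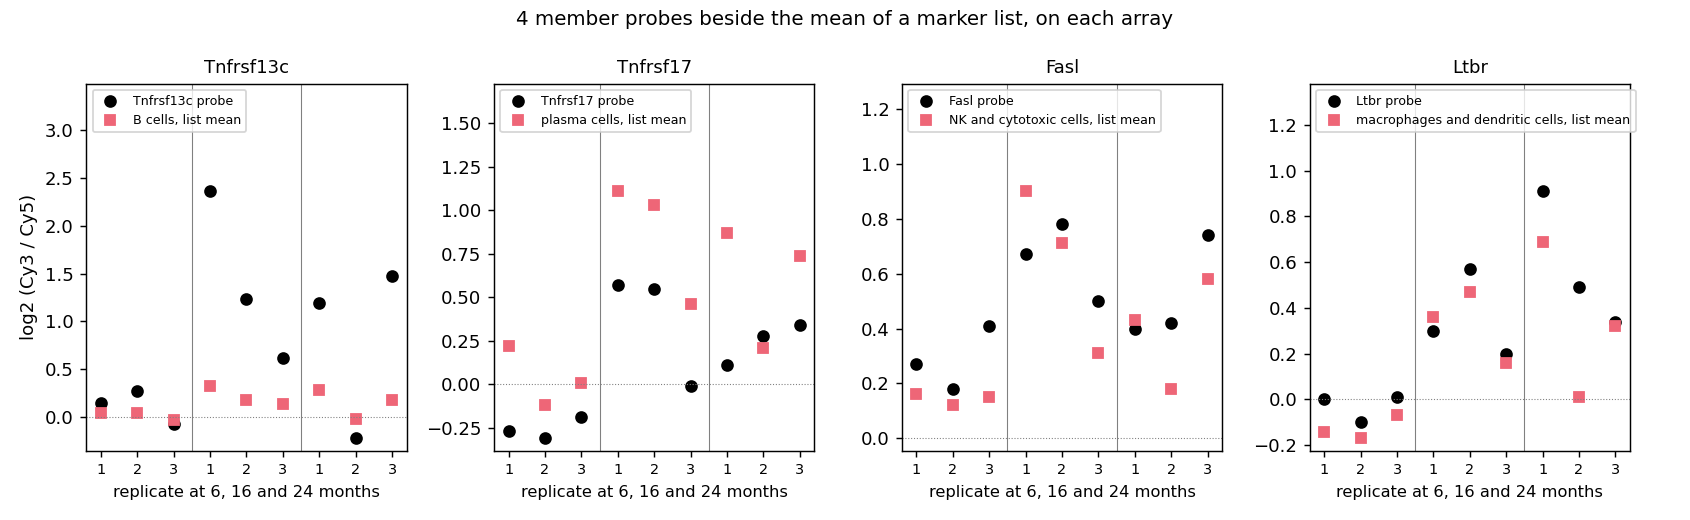
Log2 ratio of Cy3 to Cy5 (y axis) on each array (x axis, replicates 1 to 3 at 6, 16 and 24 months) of 4 member probes (black circles) and the mean of a marker list (red squares). Tnfrsf13c is set beside B cells, Tnfrsf17 beside plasma cells, Fasl beside NK and cytotoxic cells and Ltbr beside macrophages and dendritic cells. The 6 month points of each list mean lie below its 16 month points, and the highest Tnfrsf13c value, 2.36, is on the array with the highest B cell mean, 0.33.

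Receptors of stroma and epithelium, 4 probes of 4 genes, had 0 probes past the threshold at 6 and 16 months, and 1 higher and 1 lower at 24 months. Over all probes 12.4% and 18.0% passed at 6 and 16 months, and 11.6% as higher and 13.3% as lower at 24 months. Ltbr, the lymphotoxin beta receptor of stromal, epithelial and myeloid cells, had log2 ratios of 0.00, -0.10 and 0.01 at 6 months, 0.30, 0.57 and 0.20 at 16 months, and 0.91, 0.49 and 0.34 at 24 months. All 16 and 24 month arrays lay above all 6 month arrays. Against the reference the mean was -0.03, 0.35 (adjusted p 0.0611) and 0.58 (SE 0.11, 1.50-fold, adjusted p 0.0109). The difference of 24 against 6 months was 0.61 (SE 0.16), with an unadjusted p of 0.00442 and an adjusted p of 0.439. The 24 month call was kept in all 9 fits that left out 1 array and without the 3 arrays highest in haemoglobin (0.70, adjusted p 0.0375). With normexp background correction it was 0.27, with adjusted p 0.0300.

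Marker lists of cells that carry Ltbr were read beside it. Macrophage and dendritic cell probes (10 of 9 genes) had means from -0.17 to -0.07 at 6 months, 0.16 to 0.47 at 16 months and 0.01 to 0.69 at 24 months. These probes did not go together. On the 24 month arrays Lyz1 lay between 0.49 and 1.64 and Fcgr1 between 0.23 and 0.99. Cd14 lay between 0.00 and 0.04 there, Csf1r between 0.08 and 0.17 and Cd68 between -0.24 and 0.16. Fibroblast and endothelial probes had means from -0.01 to 0.14, 0.20 to 0.56 and 0.03 to 0.59. Ltbr was highest on 24 month replicate 1, which also had the highest mean of the macrophage and dendritic, the fibroblast and endothelial, and the thymic epithelial lists. The mean of the thymic epithelial list (10 probes of 8 genes) was below 0 on every array. It ran from -0.87 to -0.78 at 6 months, -0.70 to -0.55 at 16 months and -0.65 to -0.06 at 24 months. In it 6, 3 and 2 of the 10 probes passed as lower at 6, 16 and 24 months, beside 4.76%, 6.59% and 13.3% of all probes. Its probes did not go together either. Ccl25 lay between -2.63 and -1.26 on the 9 arrays and Foxn1 between -0.14 and 0.08. On 24 month replicate 1 Krt8 had 0.84 and Krt18 0.49. The part of these lists in the Ltbr values was not tested.

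Tnfrsf19 (TROY), a receptor of epithelial and stromal progenitors, had the largest fall among the member probes that passed. Its log2 ratios were -0.19, -0.79 and -1.08 at 6 months, -0.20, -1.15 and -0.25 at 16 months, and -0.94, -1.88 and -1.20 at 24 months. All 9 were below 0, and the ages overlapped. In Cy3 the probe was well above background on 1, 2 and 0 arrays of the 3 ages, so it was tested only because it was above background in Cy5, the channel where it is high. Its 24 month value was 2.54-fold lower than the reference, with an adjusted p of 0.0104 in limma. The mean log2 signal was 7.46 in the reference and 6.12 in Cy3. A bound was sought from the higher, on each array, of the probe's own signal and the lowest signal called above background. This gave the probe's own mean signal, so the fold is a fitted value and not a bound. The call was lost without 24 month replicate 2 (-1.07, adjusted p 0.0518) and without the 3 arrays highest in haemoglobin (-1.41, adjusted p 0.0539). With normexp the value was -0.34 (adjusted p 0.00308). Another probe whose description names Tnfrsf19, found after the values were seen and listed on the array by accession alone, did not share this: at 24 months it had -0.64, -0.47 and 0.99, with a mean of -0.04 (SE 0.47, adjusted p 0.960). Tnfrsf11a, the RANK receptor of medullary epithelium and myeloid cells, had 0.22, -0.03 and 0.10 at 6 months, 0.07, 0.03 and 0.10 at 16 months, and 0.14, 0.20 and -0.21 at 24 months. These ages overlapped, with adjusted p against the reference between 0.463 and 0.736. Tnfrsf12a, the TWEAK receptor, ranged from -0.02 to 0.38 and did not pass.

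**Figure D4:**
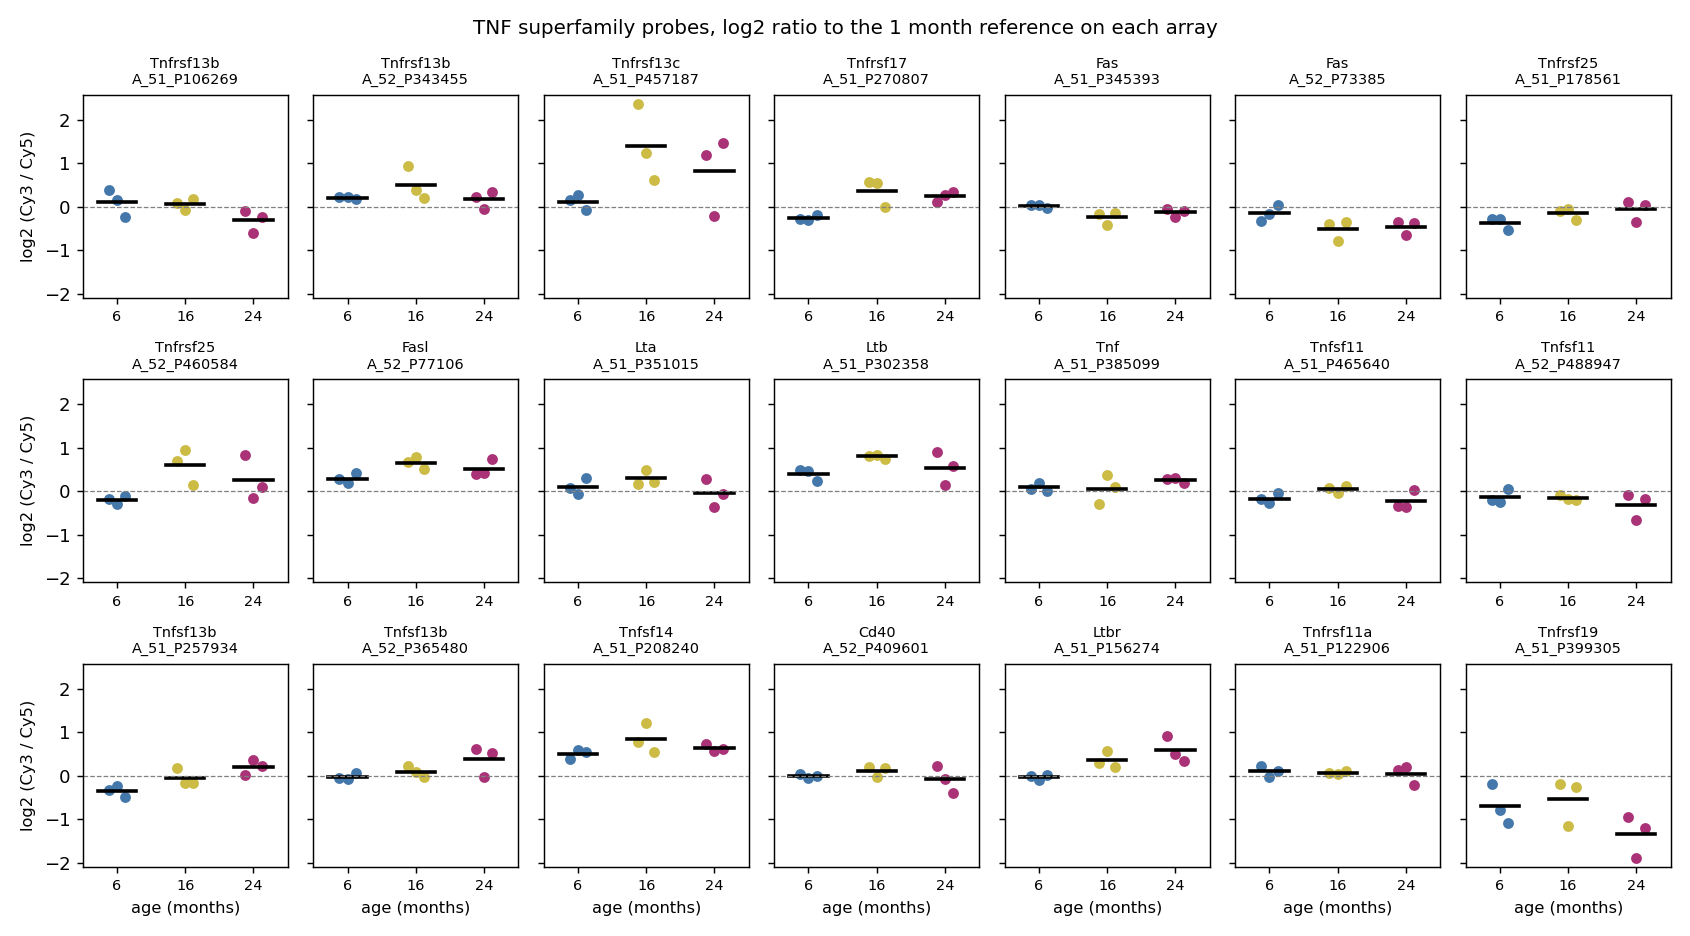
Log2 ratio to the 1 month reference (y axis) on each of the 3 arrays per age (points) with the mean (line), by age in months (x axis), for member probes named in the text. Ltbr and Tnfrsf17 lie above their 6 month points on every 16 and 24 month array, both Fas probes lie below theirs (narrowly at 24 months), and Tnfrsf19 is below 0 throughout.

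Soluble or decoy receptors, 4 probes of 4 genes, had 1 probe past the threshold as lower at 6 months and 2 at both 16 and 24 months. Over all probes 4.76%, 6.59% and 13.3% passed as lower at 6, 16 and 24 months. Tnfrsf11b encodes osteoprotegerin, the secreted decoy of RANKL. Its log2 ratios were -0.29, -0.24 and -0.31 at 6 months, -0.19, -0.24 and -0.27 at 16 months, and -0.29, -0.25 and -0.16 at 24 months. The 9 values are close to one another and all below 0. Means of -0.28, -0.23 and -0.24 (SE 0.05) had adjusted p of 0.0116, 0.0134 and 0.0113. The calls were lost without 6 month replicate 1 or 2, 16 month replicate 2 or 3, and 24 month replicate 1, with adjusted p up to 0.0864. Tnfrsf23, a mouse decoy receptor of TRAIL, was at -0.21 at 16 and at 24 months (SE 0.06, adjusted p 0.0404 and 0.0329), calls kept in 2 and 4 of the 9 fits that left out 1 array. Leaving out 6 month replicate 2, 16 month replicate 3 or 24 month replicate 1 or 3 ended both of these calls. Its neighbours on chromosome 7 did not pass, Tnfrsf22 lying between -0.03 and 0.12 and Tnfrsf26 between -0.15 and 0.11. Psmg2, the gene outside the superfamily, was higher at 6 months (0.23, adjusted p 0.0379) and 16 months (0.33, adjusted p 0.00984), calls lost without 16 month replicate 2 and, at 6 months, without 6 other arrays, and not past the threshold at 24 months (0.15, adjusted p 0.0852).

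Genes that carry the signal onward were taken from a list of 45 adaptors and effectors, of which 31 genes with 40 probes were tested. Against the reference 4 of these probes were higher and 3 lower at 6 months, 7 and 5 at 16 months, and 4 and 7 at 24 months, beside 7.61% higher and 4.76% lower, 11.4% and 6.59%, and 11.6% and 13.3% of all probes. The list's median was 0.03, 0.09 and -0.06, beside medians over all probes of -0.01, -0.01 and -0.02. Between the older ages 0 probes passed. The kinase of the alternative NF-kappaB route, Map3k14 (NIK), had means of 0.50, 0.56 and 0.43 (SE 0.06, adjusted p 0.00574, 0.00231 and 0.00442). Birc2 (cIAP1), which marks NIK for degradation with TRAF adaptors, had 0.51, 0.69 and 0.49 (SE 0.08, adjusted p 0.00916, 0.00248 and 0.00607). Both were thus higher at each age.

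Ripk1, the kinase that TNF receptor complexes recruit, had 3 probes. A_52_P452740 had 0.87, 1.25 and 1.40 (SE 0.23, adjusted p 0.0443, 0.0108 and 0.00685), and A_51_P430952 had 0.74, 0.72 and 0.71 (SE 0.21, adjusted p 0.0567, 0.0496 and 0.0421). The third, A_52_P174775, was lower at 24 months (-0.25, SE 0.08, adjusted p 0.0476), so the probes disagreed. Genes of the death pathway were among those that fell. Madd, a death domain adaptor of the TNF receptor, had means of -0.47, -0.37 and -0.53 (SE 0.08, adjusted p 0.0120, 0.0175 and 0.00500). Bid, which links caspases to mitochondria, had -0.23, -0.20 and -0.30 (SE 0.06, adjusted p 0.0395, 0.0471 and 0.0123). Of a further list of superfamily genes outside the name rule, Eda, Edar, Edaradd and Ngfr were tested with 5 probes, and 0 passed in any of the comparisons.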

How the data were processed

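Cy3 was a mouse of 6, 16 or 24 months (3 arrays each) and Cy5 the 1 month reference. The deposited files hold intensity values from which the authors had taken off the background and between whose dyes they had normalized by LOWESS (smoothing 0.25, per the file headers), in Agilent Feature Extraction (7.5.1 in the headers, 7.1 in the submitters' processing notes). The deposited value table holds a score, which matched log10 processed signals scaled within each channel to mean 0 and SD 1. Both samples of an array carried 1 identical file.

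The log2 ratio of processed Cy3 to Cy5 signal was taken per spot, outlier spots were dropped (159 on 24 month replicate 1, 179 on replicate 3, and 34 to 52 elsewhere) and spots of a probe averaged. A probe was tested when its Cy3 signal was well above background throughout 1 age or its Cy5 signal on all 9 arrays, as held for 37449 probes. One limma 3.58.1 model (R 4.3.3) with a mean per age was fitted, with prior degrees of freedom 1.94 and residual 6. P-values are two-sided and Benjamini-Hochberg adjusted over all probes tested. A test against the reference leaves out the reference's own spread. The labels do not say more of the replicates than 1 mouse each, so p-values measure the spread between these samples, and the number of arrays limits precision.

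Symbols were updated through RefSeq (GRCm38.p6) by accession for 38 member probes and by symbol or synonym for 10. A gene was named with every array's value if a probe passed between ages, or passed against the reference with a mean of at least 0.5 in size, or was among the 5 smallest F test p-values among ages; Fas, Cd40, Tnf, Lta, Ltb, Ltbr, Tnfrsf11a and Tnfsf11 were always named. This gave 16 genes with 21 probes, and the other genes whose values are printed were added after their values were seen. The members and lists were chosen with earlier results of these data known. The model was tested on simulated data. Tables and figures were made in Python 3.11.15 with pandas 2.3.3, numpy 2.4.6 and matplotlib 3.10.9. Same-numbered replicates did not deviate together (correlations of deviations from -0.31 to 0.10), so the numbers were not taken as pairs. Some genes of the lists are not reported here.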

Additional observations from a re-analysis of the deposited data

How the results depend on the processing

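Between the older ages 0 member probes passed under every alternative run. Against the reference, the numbers that passed at 6, 16 and 24 months (6, 12 and 12) were 0, 4 and 0 with only the arrays of that age in the fit (1132, 3534 and 0 of all probes), and 3, 0 and 5 without the 3 arrays highest in haemoglobin (2632, 0 and 3651 of all probes), a setting added after the data were seen. With haemoglobin as a covariate 0 passed at 6 months, beside 17 of all probes (10 and 11 members later), and with the replicate number as a block 2 (9 and 11 later). Leaving out 1 array gave 0 to 9 at 6 months (0 without 6 month replicate 2, 1 without replicate 1, 2 without replicate 3), 2 to 14 at 16 months (2 without 16 month replicate 2, 7 without replicate 1) and 5 to 11 at 24 months (5 without 24 month replicate 1, 7 without replicate 2). Where 2 arrays or 1 were left at an age, they were assumed to vary like the other ages. Normexp with loess gave 9, 16 and 12, the authors' scores 6, 12 and 10, median centring 7, 13 and 12, no filter 5, 12 and 10, and an intensity trend 7, 14 and 13. Of 21 values of named genes, none changed sign under these settings. The 16 of them that were calls lost the call in 85 of 288 recomputed fits. Of 30 member calls against the reference, 6 were kept in all 9 fits that left out 1 array: Tnfsf14 and Fasl at 16 and 24 months, and Ltbr and Tnfrsf10b A_51_P389028 at 24 months. Probes dim in Cy3 (9 of 48) are limited by signal over background.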

Other observations

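Further adaptors and effectors of the list passed against the reference in limma at single ages or with single probes. Higher were Ikbkb, a kinase that releases NF-kappaB, at 16 months (0.30, SE 0.09, adjusted p 0.0470) and the kinase Tbk1 with probe A_52_P532029 at 16 months (0.43, SE 0.09, adjusted p 0.0208). Lower were the necroptosis kinase Ripk3 at 16 months (-0.25, SE 0.07, adjusted p 0.0490) and 24 months (-0.33, adjusted p 0.0187), Tank at 24 months (-0.31, SE 0.09, adjusted p 0.0399), and probe A_52_P192418 of Fadd, the adaptor of Fas, at 16 and 24 months (-0.23 at both, SE 0.06, adjusted p 0.0384 and 0.0319). The other Fadd probe did not pass, with values from -0.11 to -0.05.

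Accession-named probes whose descriptions name Tnfrsf14 and Tnfrsf9, chosen after their values were seen, did not pass: at 16 months they had 0.41 (SE 0.17, adjusted p 0.135) and -0.04 (SE 0.05, adjusted p 0.603). The mean of the regulatory T cell list lay between 0.23 and 0.60 on all 9 arrays. Granulocyte probes ranged in their mean from -1.19 to -0.74 at 6 months, from -1.56 to 1.54 at 16 months and from -2.05 to -1.08 at 24 months.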
